A study of Homo sapiens with 9 samples.

Results

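The genes described here are 10 interferon-induced antiviral effectors: MX1, MX2, RSAD2, BST2, ISG20, IFI6, IFI27, IFI44, IFI44L and XAF1. They were chosen by symbol, each had 1 row among the 60605 genes of the deposited table, and all 10 were among the 21397 genes tested, which had a mean of at least 0.1 FPKM (fragments scaled to gene length and sequencing depth) over all libraries. Poly(A)+ RNA was sequenced from TE13, an established line derived from esophageal squamous cell carcinoma (ESCC). PARylator is the study's name for the long noncoding RNA LINC00885. One group of cells was transfected with control siRNA, a further group with PARylator siRNA.1 and the last with PARylator siRNA.2, and each of the 3 groups had 3 libraries. The comparisons ask how the transcriptome of these cells differed after PARylator knockdown with each siRNA. A single control siRNA and no untransfected group were available, so the loss of the target and the transfection of a given siRNA cannot be told apart.

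Interferons are secreted proteins that cells release on sensing viral nucleic acid. Type I interferons bind the IFNAR1 and IFNAR2 receptor and type III interferons bind IFNLR1 with IL10RB. Both receptors act through JAK1 and TYK2 to assemble a transcription factor complex that includes STAT2 and IRF9 and binds the interferon-stimulated response element in promoters. Its target genes encode effectors that act at separate steps of a viral life cycle, and squamous epithelia are a tissue in which both interferon types are active.

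All 10 effectors rose with PARylator siRNA.1 and all 10 rose with PARylator siRNA.2, relative to control siRNA. The changes ran from 1.52-fold for BST2 to 12.6-fold for RSAD2 with siRNA.1, and from 1.55-fold to 10.7-fold for the same genes with siRNA.2. Among all genes tested, 15% rose with siRNA.1 and 15.8% rose with siRNA.2 (edgeR quasi-likelihood test, Benjamini-Hochberg adjusted p under 0.05). The largest adjusted p among the 10 belonged to BST2 in both comparisons, 6.5e-42 with siRNA.1 and 2.55e-46 with siRNA.2. The 10 had a median log2 fold change of 2.18 for siRNA.1 and 2.13 for siRNA.2, whereas over all genes tested it was -0.00053 and 0.0040. With a log2 fold change of at least 1 also required, 9 of the 10 rose in each comparison, all but BST2, against 2.43% and 2.31% of genes tested. The comparisons share their control libraries. The p-values rest on the spread between these libraries, which the submitters call biological replicates. The fit pooled that spread over all genes, so the p-values and standard errors do not measure each gene's own spread. Very small p-values should therefore not be read closely.

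The libraries held between 15337917 and 22559998 counts, and replicate libraries differed by more than sampling noise. The targeted gene was barely sampled. The control libraries held 6, 7 and 12 counts of LINC00885, those of siRNA.1 held 4, 5 and 2, and those of siRNA.2 held 2, 0 and 4. All values with either siRNA lay below all control values, but neither difference passed the test (edgeR adjusted p = 0.376 with siRNA.1 and 0.0659 with siRNA.2), so these libraries give only a weak check of the knockdown. The share of counts from mitochondrially encoded genes was 7.46% to 7.66% in the control libraries, 4.99% to 5.06% for siRNA.1 and 5.54% to 5.56% for siRNA.2, and its part in the results was not tested. All 8 epithelial markers were tested, and their summed level was 1129 to 1164 FPKM in the control libraries, 1200 to 1278.5 for siRNA.1 and 1082 to 1111 for siRNA.2. In the control libraries the keratins KRT18, KRT8 and KRT5 averaged 451, 285 and 142 FPKM and the adhesion molecules CDH1 and EPCAM 133 and 99.0, whereas TP63 stood at 21.4, KRT14 at 9.07 and KRT13 at 1.5. KRT5, a basal keratin, fell by 1.86 on the log2 scale for siRNA.1 and by 1.36 for siRNA.2, and KRT13, a keratin of the suprabasal squamous layers, by 2.84 and 2.71. CDH1 fell by 0.15 and 0.53 and TP63 by 0.15 and 0.21, KRT18 and EPCAM rose, and KRT8 and KRT14 passed in neither comparison. The part of this shift in the rise of the effectors was not tested.

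**Figure D1:**
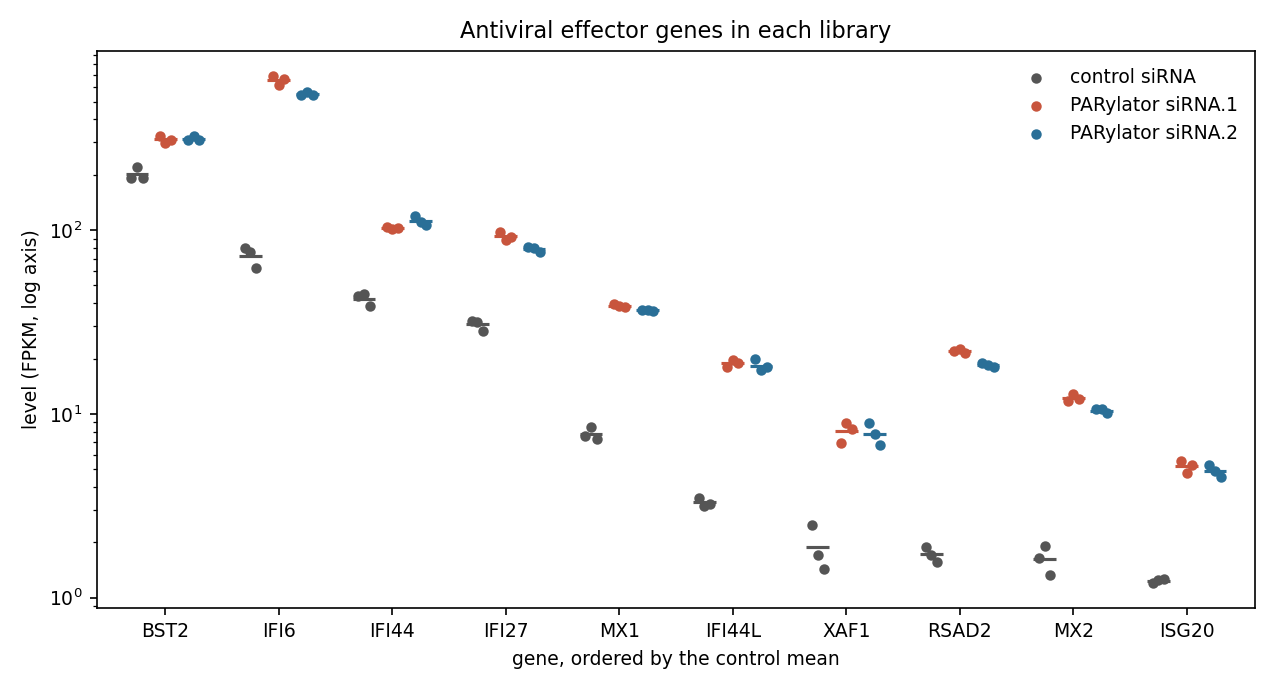
Level of each antiviral effector gene in each of the 9 libraries, in FPKM on a log axis, with genes ordered by their control mean. Points are libraries and short lines are means of 3. For every gene, all libraries with either PARylator siRNA lie above all control libraries.

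IFI6 and IFI27 encode small hydrophobic proteins of the same family that reside in intracellular membranes, and IFI6 limits the replication of flaviviruses at the endoplasmic reticulum. IFI6 (chr1:27666064-27672212, minus strand, GRCh38) stood at 79.55, 75.73 and 62.49 FPKM in the control libraries, at 688.56, 619.43 and 663.26 with siRNA.1 and at 543.35, 562.46 and 542.62 with siRNA.2. It became the most abundant of the effectors per length of exon. Its siRNA.1 and siRNA.2 libraries did not overlap, but how common such separation was among all genes was not computed. Its log2 fold changes were 3.16 ± 0.05 for siRNA.1 and 2.91 ± 0.05 for siRNA.2 (SE, n = 3 per group); paired values below keep this order. IFI27 (chr14:94104836-94116698, plus strand) stood at 31.96, 31.77 and 28.26 FPKM with control siRNA, at 97.39, 88.07 and 91.65 with siRNA.1 and at 80.76, 79.92 and 76.19 with siRNA.2. Its rise was smaller than that of IFI6, with log2 fold changes of 1.57 ± 0.05 and 1.35 ± 0.05.

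RSAD2 encodes viperin, a radical SAM enzyme that makes a chain-terminating nucleotide, and ISG20 encodes an exonuclease that degrades RNA. RSAD2 (chr2:6865557-6898239, plus strand) stood at 1.89, 1.70 and 1.57 FPKM with control siRNA, at 22.06, 22.62 and 21.44 with siRNA.1 and at 19.01, 18.52 and 18.09 with siRNA.2. This was the largest change among the 10, with log2 fold changes of 3.66 ± 0.08 and 3.42 ± 0.08. Among the 12532 genes tested that had a mean of at least 1 FPKM, RSAD2 ranked 11 by log2 fold change with siRNA.1 and 10 with siRNA.2. ISG20 (chr15:88635670-88656483, plus strand) stood at 1.21, 1.25 and 1.26 FPKM with control siRNA, at 5.52, 4.80 and 5.25 with siRNA.1 and at 5.29, 4.90 and 4.52 with siRNA.2. ISG20 had the lowest mean of the effectors in all 3 groups by the deposited FPKM, and its PARylator siRNA libraries interleaved. Its log2 fold changes were 2.04 ± 0.10 and 1.97 ± 0.10.

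MX1 and MX2 encode dynamin-like GTPases; MX1 blocks influenza viruses and MX2 blocks the nuclear entry of HIV-1. They lie on chromosome 21 on the same strand, with 10627 bases from the end of MX2 to the start of MX1. MX1 (chr21:41420020-41470071, plus strand) stood at 7.62, 8.51 and 7.27 FPKM with control siRNA, at 39.43, 38.51 and 38.10 with siRNA.1 and at 36.87, 36.58 and 36.18 with siRNA.2. MX2 (chr21:41361999-41409393, plus strand) stood at 1.64, 1.90 and 1.33 FPKM with control siRNA, at 11.69, 12.83 and 11.98 with siRNA.1 and at 10.62, 10.59 and 10.06 with siRNA.2. MX1 libraries varied little within a group after PARylator knockdown, with coefficients of variation of 1.76% and 0.948%. The log2 fold changes of MX1 were 2.28 ± 0.04 and 2.22 ± 0.04. Those of MX2 were 2.89 ± 0.06 and 2.68 ± 0.06.

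BST2 encodes tetherin, which holds budding virions at the cell surface. BST2 (chr19:17402939-17405630, minus strand) stood at 192.34, 220.71 and 190.95 FPKM with control siRNA, at 326.02, 299.51 and 309.16 with siRNA.1 and at 309.07, 325.48 and 308.43 with siRNA.2. It was the most abundant effector with control siRNA, above 99.4% of all genes tested, and it changed least. Its log2 fold changes were 0.60 ± 0.04 and 0.63 ± 0.04.

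IFI44 and IFI44L encode related cytoplasmic proteins whose genes are adjacent on chromosome 1, 3651 bases apart on the same strand. IFI44 (chr1:78649796-78664078, plus strand) stood at 43.64, 44.70 and 38.71 FPKM with control siRNA, at 103.84, 100.79 and 102.05 with siRNA.1 and at 119.43, 111.32 and 106.94 with siRNA.2. IFI44L (chr1:78619902-78646145, plus strand) stood at 3.50, 3.16 and 3.25 FPKM with control siRNA, at 17.97, 19.68 and 18.81 with siRNA.1 and at 19.85, 17.24 and 17.92 with siRNA.2. The pair differed in the size of the response and in the level from which it started. The log2 fold changes of IFI44 were 1.25 ± 0.05 and 1.40 ± 0.05, and those of IFI44L were 2.48 ± 0.06 and 2.46 ± 0.06.

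XAF1 encodes a zinc finger protein that binds XIAP, an inhibitor of caspases, and opposes its action. XAF1 (chr17:6755447-6775647, plus strand) stood at 2.50, 1.70 and 1.43 FPKM with control siRNA, at 6.96, 8.94 and 8.31 with siRNA.1 and at 8.87, 7.73 and 6.76 with siRNA.2. It was the most variable effector within each group, with coefficients of variation of 29.7%, 12.5% and 13.6%, yet the groups did not overlap with control. Its log2 fold changes were 2.09 ± 0.09 and 2.05 ± 0.09. XIAP itself averaged 9.45 FPKM with control siRNA and fell, by 0.48 on the log2 scale with siRNA.1 and by 0.38 with siRNA.2 (edgeR adjusted p = 5.7e-13 and 6.7e-09).

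Across the 10 genes, all 3 libraries of each PARylator siRNA lay above all 3 control libraries, a separation seen for 20.7% of genes tested with siRNA.1 and 21.1% with siRNA.2. The effectors together took 0.068% to 0.0784% of all counts in the control libraries, 0.281% to 0.2917% for siRNA.1 and 0.2566% to 0.268% for siRNA.2. Their make-up differed between groups as well. BST2 supplied 28.4% to 31.0% of the effectors' counts with control siRNA but 11.7% to 12.3% with siRNA.1, whereas IFI6 went from 8.60% to 9.99% up to 20.6% to 22.1%. Counts come from a population of cells, so a rise in every cell and a rise in some of the cells cannot be told apart.

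**Figure D2:**
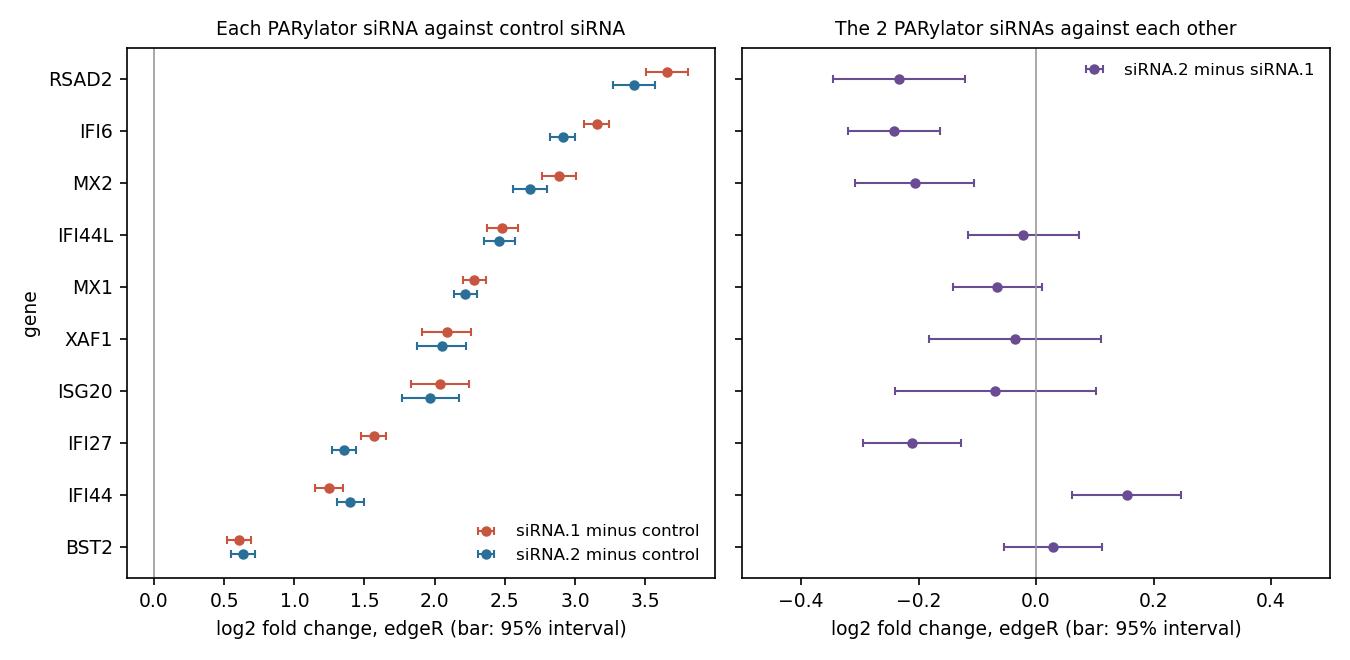
Log2 fold change of each effector gene, as edgeR estimates with 95% intervals (n = 3 libraries per group): each PARylator siRNA against control siRNA on the left, siRNA.2 against siRNA.1 on the right, on a different scale. All left-hand intervals lie above 0; on the right, IFI6, RSAD2, IFI27 and MX2 lie below 0 and IFI44 above it.

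The PARylator siRNAs were also compared directly. By edgeR, the siRNA.2 libraries were lower in IFI6, RSAD2, IFI27 and MX2 and higher in IFI44, and the other 5 genes did not pass. Among all genes tested, 6.1% were higher and 6.07% lower in this comparison. The log2 differences were small: -0.24 ± 0.04 for IFI6 (edgeR adjusted p = 9.2e-08), -0.23 ± 0.06 for RSAD2 (adjusted p = 0.0009), -0.21 ± 0.04 for IFI27 (adjusted p = 3.0e-05), -0.21 ± 0.05 for MX2 (adjusted p = 0.0012) and 0.15 ± 0.05 for IFI44 (adjusted p = 0.013). With limma on log2(FPKM + 0.1), which differs from edgeR in its input, scaling and model of the spread, none of the 5 passed, with adjusted p from 0.133 for RSAD2 to 0.402 for MX2. The log2 differences were of similar size there, at -0.26 for IFI6, -0.25 for RSAD2, -0.23 for IFI27, -0.22 for MX2 and 0.14 for IFI44. The call on IFI44 was also lost without siRNA.1 replicate 2 (edgeR adjusted p = 0.063) and without siRNA.2 replicate 1 (0.119). For the 5 that did not pass, the 95% interval of the log2 difference was -0.14 to 0.0098 for MX1, -0.055 to 0.11 for BST2, -0.24 to 0.10 for ISG20, -0.12 to 0.073 for IFI44L and -0.18 to 0.11 for XAF1. For the 5 that passed, siRNA.2 changed the mean FPKM over control by between 78.3% (IFI27) and 117% (IFI44) as much as siRNA.1 did.

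The order of the genes by level can be read only per length of transcript, and it depended on the length used. The deposited FPKM divides by the length of all annotated exons of a gene. For MX1 that is 17984 bases, although its canonical transcript in GENCODE release 44 has 2776. The ratio of these lengths was 6.478 for MX1, 5.72 for IFI27, 4.538 for ISG20 and 4.273 for MX2, and between 1.1 (BST2) and 1.992 (IFI44L) for the other 6. On the deposited scale the order with control siRNA was BST2, IFI6, IFI44, IFI27, MX1, IFI44L, XAF1, RSAD2, MX2 and ISG20, and the libraries of XAF1 and RSAD2 and those of RSAD2 and MX2 overlapped. For the second scale, all counts of a gene were divided by its canonical length, including any from exons outside that transcript. Levels per canonical length can therefore be too high. On that scale IFI27 rose from place 4 to place 2 with control siRNA, at 175 ± 11.9 FPKM (SD, n = 3). RSAD2 took the last place there, at 2.86 ± 0.267 FPKM. With siRNA.1 the first place went to IFI6 on both scales, at 657 ± 35.0 FPKM on the deposited scale and 757 ± 40.3 FPKM per canonical length. Per canonical length the last place went to XAF1 with siRNA.1 and with siRNA.2, at 15.6 ± 1.96 and 15.1 ± 2.05 FPKM. Comparisons of a gene with itself between groups are unaffected by its length.

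**Figure D3:**
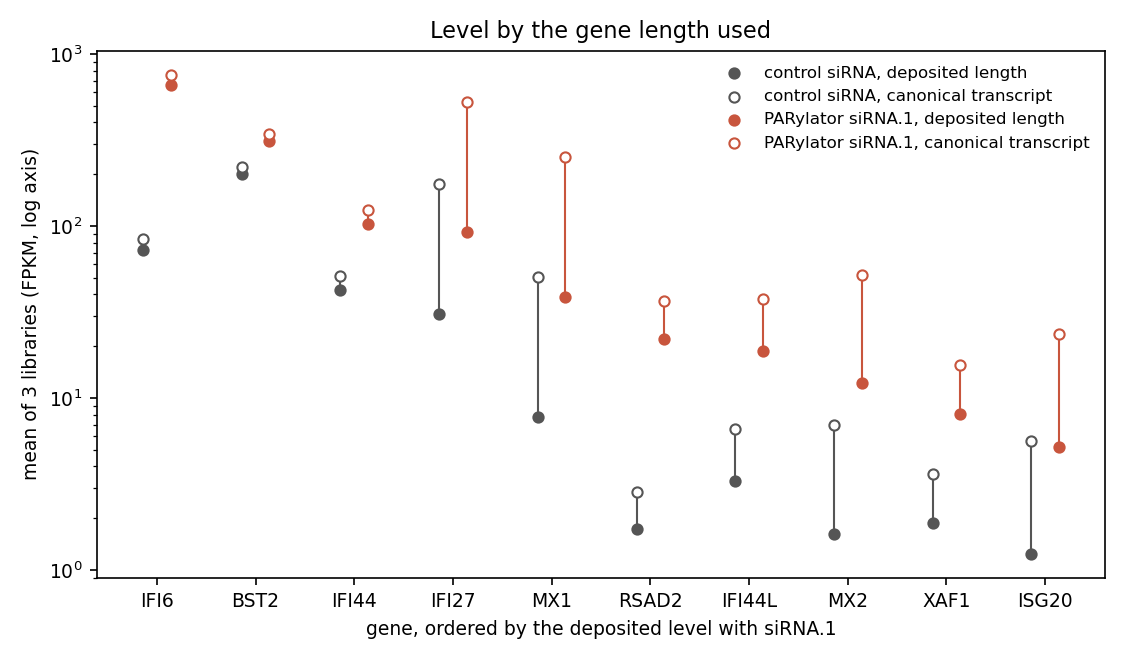
Mean FPKM of each effector in the control and PARylator siRNA.1 libraries (n = 3 each, log axis), computed with the deposited exonic length (filled) and with the canonical transcript length (open). The shift is largest for MX1 and IFI27, whose exonic lengths exceed the canonical length by 6.478 and 5.72 times.

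Most of the effectors share a promoter feature. RefSeq promoter windows of GRCh38, 250 bases before to 50 bases after an annotated transcript start, matched 9 of the 10 genes (all but MX2), with 15 windows in all. The core of the interferon-stimulated response element, GAAANNGAAA, was searched on both strands, with overlapping matches counted. It was found in 8 of the 9 genes (88.89%), against 4.376% of the 27305 genes with a window. XAF1 had no match in its 2 windows, which says only that these letters are not there. One stretch for each gene with a match is printed 5′ to 3′ on the gene's strand to show how alike the cores are; capitals mark the motif or, in IFI44, RSAD2 and IFI27, its reverse complement.
IFI6: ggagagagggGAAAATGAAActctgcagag
IFI44L: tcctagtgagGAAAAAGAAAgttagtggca
IFI44: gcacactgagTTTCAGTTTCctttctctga
RSAD2: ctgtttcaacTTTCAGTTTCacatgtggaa
IFI27: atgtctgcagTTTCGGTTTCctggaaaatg
ISG20: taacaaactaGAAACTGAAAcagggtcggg
BST2: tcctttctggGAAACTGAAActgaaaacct
MX1: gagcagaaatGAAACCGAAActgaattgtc

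These lie at chr1:27672329-27672358, chr1:78620274-78620303, chr1:78649761-78649790, chr2:6877622-6877651, chr14:94110618-94110647, chr15:88638937-88638966, chr19:17405741-17405770 and chr21:41420559-41420588, in the order printed. IFI6, the most abundant effector after knockdown, had 3 copies, which began 156, 115 and 93 bases before the start. IFI44L had 2 copies, 164 and 73 bases before the start, inside 30-base stretches with the same letters. The printed MX1 copy began 12 bases after the start of that window's transcript, and another window of MX1 held a further copy. BST2, the effector that changed least, had 2 overlapping copies, so the number of copies did not order the genes by their change. A second motif that was searched, TTCNNNGAA, was found in 3 of the 9 genes (33.33%), against 9.376% of the 27305 genes with a window.

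The other genes of the pathway were read from lists by role. Of 6 interferon ligands, 4 rose with each siRNA, all from a few counts. IFNB1, a type I interferon, had 2, 1 and 1 counts with control siRNA, 4, 11 and 13 with siRNA.1 and 14, 21 and 28 with siRNA.2 (edgeR adjusted p = 0.0079 and 6.4e-05). The type III interferon IFNL1 had 8, 3 and 8 counts with control siRNA, 32, 53 and 78 with siRNA.1 and 62, 66 and 80 with siRNA.2. IFNL2 and IFNL3, near-identical genes between which reads may be split, had at most 1 and 5 counts in a control library and at least 22 and 37 in every other library. IFNE and IFNK did not pass.

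The receptors moved little. Of 6, only IFNGR1 rose, by a log2 fold change of 0.16 with each siRNA, while IL10RB fell with both, by 0.42 and 0.58 on the log2 scale. IFNAR1 passed only with siRNA.2, with a log2 fold change of -0.15, and IFNGR2 only with siRNA.1, at -0.20. IFNAR2 and IFNLR1 passed in neither. Of 9 signalling genes, 3 rose and 2 fell with siRNA.1, and 2 rose and 3 fell with siRNA.2. STAT2 rose with log2 fold changes of 0.33 and 0.22. The kinase TYK2 fell by 0.42 and 0.47 on the log2 scale and the transcription factor IRF1 by 0.31 and 0.24, whereas JAK1 passed only with siRNA.2, where it fell by 0.12, and IRF3 passed in neither comparison. IRF9, named after its values were seen, rose with siRNA.1 (log2 fold change 0.50) and had a log2 fold change of 0.22 with siRNA.2 (edgeR adjusted p = 0.11).

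Of 5 feedback inhibitors, USP18, which removes ISG15 and blocks the type I receptor, was the one that rose, from 6.99 ± 0.307 FPKM to 36.0 ± 1.30 and 28.7 ± 2.47 FPKM (SD, n = 3). SOCS3 fell by 0.22 and 0.35 on the log2 scale, SOCS1 and PIAS1 passed only with siRNA.2, where they fell by 0.90 and 0.25, and PTPN2 passed in neither comparison.

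Among 26 other antiviral genes, 22 rose with each siRNA, with a median log2 fold change of 1.13 and 1.09 for the list. ISG15, a ubiquitin-like modifier, rose from 100.1 ± 2.68 FPKM to 506 ± 25.4 and 425 ± 5.36 FPKM. IFIT1 and IFIT3, which act on foreign RNA, rose with log2 fold changes of 3.19 and 2.17 with siRNA.1. The membrane proteins IFITM1 and IFITM3, which hinder viral fusion, had log2 fold changes of 1.81 and 0.85 with siRNA.1. With siRNA.2 they had 1.74 and 0.71. The RNA-editing enzyme ADAR had 0.42 with siRNA.1 and 0.45 with siRNA.2. SLFN11 went the other way and fell by 0.46 and 0.49 on the log2 scale. ZC3HAV1 and APOBEC3G fell with siRNA.1, by 0.31 and 0.36, and had log2 fold changes of -0.09 and -0.11 with siRNA.2 that did not pass.

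**Figure D4:**
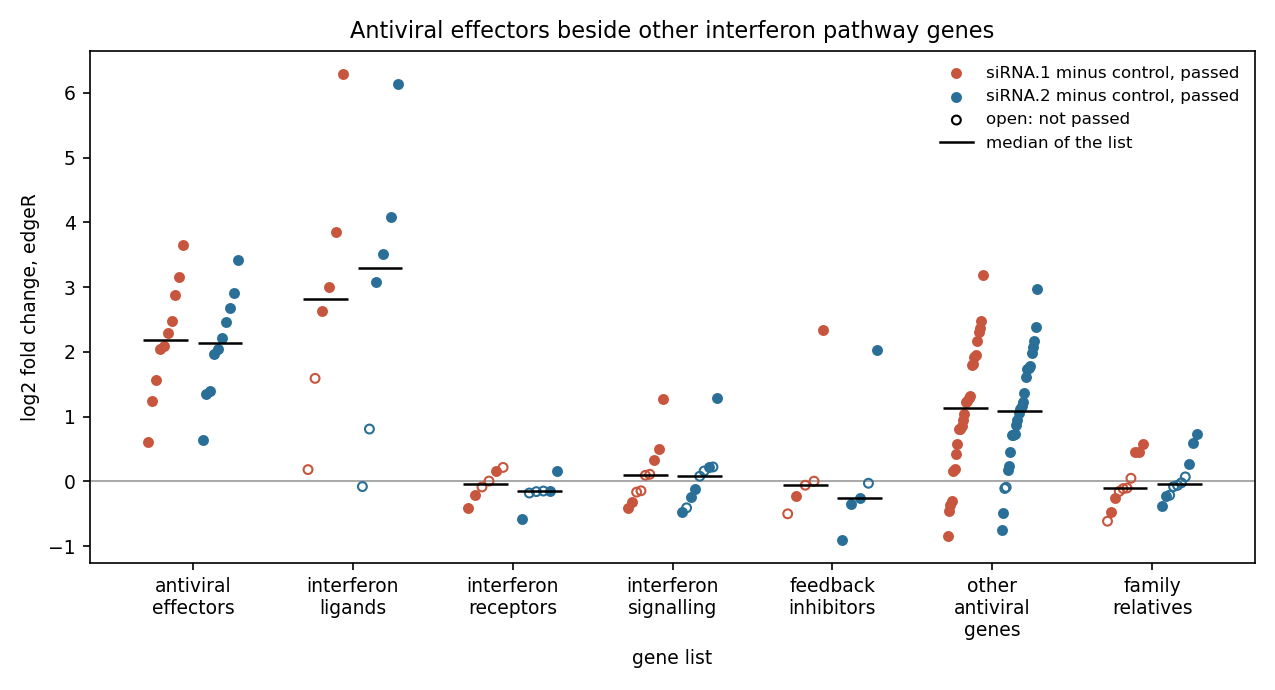
Log2 fold change (edgeR) of the effector genes and of 6 lists of related genes, for siRNA.1 and siRNA.2 against control siRNA; each point is a gene, filled where it passed the test, and black lines are list medians. The effectors' medians are 2.18 and 2.13; the receptor, signalling and relatives' medians lie near 0.

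Relatives of the effectors by sequence or domain were read with XIAP, the protein that XAF1 binds, and were mixed in direction. Of these 10, 3 rose and 2 fell with each siRNA, XIAP among those that fell, and the largest rise was 0.73 on the log2 scale. Which genes rose or fell was not wholly the same for the PARylator siRNAs. Among all genes tested, 15% rose and 15.2% fell with siRNA.1, and 15.8% rose and 15.1% fell with siRNA.2. The dynamins DNM1, DNM2 and DNM1L, which like MX1 and MX2 are large GTPases, had log2 fold changes of -0.26, 0.05 and -0.10 with siRNA.1 and 0.27, -0.02 and -0.23 with siRNA.2. ISG20L2 and AEN, exonucleases related to ISG20, rose with log2 fold changes of 0.46 and 0.57 with siRNA.1 and 0.59 and 0.73 with siRNA.2. TRAFD1, which like XAF1 carries TRAF-type zinc fingers, had log2 fold changes of -0.11 and -0.08 and did not pass.

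Position on the chromosome was compared in the same way. IFI27 lies between its relatives IFI27L1, 990 bases away, and IFI27L2, 11081 bases away. IFI27L1 rose with siRNA.1 (log2 fold change 0.46, edgeR adjusted p = 0.0043) but had a log2 fold change of 0.07 with siRNA.2, and IFI27L2 passed in neither. AEN, described above, lies 3389 bases from ISG20. BISPR, a long noncoding RNA that starts 56 bases from BST2 on the opposite strand, rose with log2 fold changes of 0.59 and 0.50, close to those of BST2. The unnamed gene ENSG00000235912, next to IFI6, passed in neither comparison.

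Some effectors share exonic bases with another gene, and the deposited counts do not state whether strand was used. RSAD2 shares 351 bases, 6.2% of its exonic length, with CMPK2 on the opposite strand. CMPK2, a mitochondrial nucleotide kinase, had 306, 342 and 280 counts with control siRNA and between 1638 and 2292 in the other libraries, so a part of either count may belong to its partner. XAF1 shares 2535 bases (38.32%) with PRAL on the opposite strand, which had at most 30 counts in a library. MX1 shares 562 bases (3.12%) with TMPRSS2, which had at most 71 counts, and IFI6 shares 216 bases (23.08%) with LINC02574 on its own strand, which had at most 12.

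The effectors moved together across libraries. Pearson's r between their log2(FPKM + 0.1) values over the 9 libraries was 0.937 to 0.999 across 45 pairs, lowest for BST2 with XAF1. These points fall into a control cluster and a knockdown cluster, so the values describe that separation. Outside the 10, the genes with a pattern most like their mean were IFIH1, IFITM1, IFIT3, OAS1 and CMPK2, with r from 0.998 to 0.999, and 1189 of 11823 candidate genes had r above 0.9. IFIH1, the double-stranded RNA sensor MDA5, rose from 10.01 ± 0.746 FPKM to 34.1 ± 0.924 and 34.3 ± 0.732 FPKM.

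Markers of other cells were low in this cell line. Of 10 blood cell markers, MS4A1 had no count in any library and CD2 none with either PARylator siRNA. The list's summed level was 5.54 to 6.63 FPKM with control siRNA, 7.89 to 8.81 for siRNA.1 and 7.41 to 8.73 for siRNA.2, and of its 6 tested genes PTPRC, LYZ, FCER1G and CSF1R rose, LAPTM5 fell and TYROBP did not pass, for each siRNA. LAPTM5, the most abundant of the list with control siRNA at 4.95 FPKM, fell by 0.75 and 1.06 on the log2 scale. LYZ went from 0.317 ± 0.219 FPKM to 2.79 ± 0.286 and 3.08 ± 0.274 FPKM. Of 3 markers of plasmacytoid dendritic cells, LILRA4 had no count in any library and CLEC4C had 1 count, in a siRNA.1 library. IL3RA was detected in every library, at 19 to 36 counts, and its change from control passed for neither siRNA. The 7 markers of fibroblasts and endothelial cells summed to 3.20 to 3.75 FPKM with control siRNA, 2.09 to 2.46 for siRNA.1 and 1.87 to 2.22 for siRNA.2, and the 3 of them that were tested, COL1A1, VWF and CDH5, fell with each siRNA. The part of other cells in the rise of the effectors was not tested.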

How the data were processed

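Per the paper, poly(A)+ libraries were sequenced on an Illumina NovaSeq system, reads were aligned with STAR to GRCh38 and counted per gene with featureCounts; versions, annotation release and strandedness are not given in the sources used here. The authors deposited raw counts and FPKM values for each library; the FPKM equal the count divided by the deposited exonic length (a further column) and the library total (within 0.005 for 100% of values). Libraries were grouped by their titles. Genes whose mean reached 0.1 FPKM were tested on counts in 1 fit over 9 libraries. The test was that of edgeR 4.0.16 (TMM, quasi-likelihood F test, R 4.3.3), adjusted by Benjamini-Hochberg at 0.05. This default fit pooled the spread over all genes, so its standard errors, intervals and very small p-values should not be read closely. A fit in which the spread could differ by gene (bias-adjusted quasi-likelihood) was added after that was seen. Its spread still drew on the other genes, with 52.7 to 67.3 total degrees of freedom. DESeq2 1.42.0 and limma 3.58.1 were alternatives, as were other scalings, filters, thresholds and left-out libraries. FPKM replicate values are means ± SD. The fits were tested on simulated data. The 10 genes and the lists were chosen with earlier results of these data known. Named from each list were at most 6 genes, in order of mean FPKM, plus those that moved against most of it, with each effector's neighbours of at least 1 FPKM and the 5 genes most alike in pattern. Some genes that this rule names are not reported here. Annotation came from GENCODE release 44 and promoters from RefSeq (GRCh38.p14). Depth was 15337917 to 22559998 counts per library.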

Additional observations from a re-analysis of the deposited data

Results flagged for a closer look

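The effects of the PARylator siRNAs differed for 5 of the 10 effectors when siRNA.2 was tested against siRNA.1 directly (edgeR). The log2 difference was -0.24 for IFI6, -0.23 for RSAD2, -0.21 for IFI27 and -0.21 for MX2, and all libraries with siRNA.2 lay below all libraries with siRNA.1 in each of these genes. It was 0.15 for IFI44, with all siRNA.2 libraries above all siRNA.1 libraries. Such separation was not particular to the 5. MX1 showed it too, every siRNA.2 library being the lower, but did not pass (edgeR adjusted p = 0.328). The share of all genes tested with such separation was not computed for the direct comparison, so the separation cannot be called unusual. None of the 5 passed by limma on log2(FPKM + 0.1), although the differences were of similar size, at -0.26, -0.25, -0.23, -0.22 and 0.14 in the same order.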

How the results depend on the processing

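Against control siRNA, each of the 10 effectors stayed higher and past the threshold in all 20 alternatives that call by p alone, for each PARylator siRNA, with a largest adjusted p of 0.0018 and 0.0017 (BST2, limma on log2(FPKM + 0.01)). Leaving out each library in turn left 10 to 10 effectors higher. With the bias-adjusted quasi-likelihood fit, added after the data were seen, adjusted p ran from 1.54e-48 to 1.01e-16 with siRNA.1, and 4 lower and 1 higher effectors remained in the direct comparison of the siRNAs. That comparison was the one that moved: 0 higher and 0 lower effectors by limma with each pseudocount (0.1, 1 and 0.01), and 0 and 0 when the log2 change also had to reach 1. Without single libraries 0 to 1 were higher and 4 to 4 lower. The differences that did not pass changed sign for BST2 (-0.0036 to 0.066), IFI44L (-0.069 to 0.015) and XAF1 (-0.13 to 0.052) when libraries were left out. The cause was not tested. Over all genes, the direct comparison gave 1306 higher and 1298 lower genes by edgeR but 208 and 399 by limma on log2(FPKM + 0.1), and a log2 threshold of 1 left 521 higher and 326 lower genes with siRNA.1 and 494 and 367 with siRNA.2. Replicate numbers did not pair the libraries (r of same-numbered deviations -0.188 to 0.0996, 0 of 9 over 0.1, and 0 libraries closest to their own number); with the replicate block 10 and 10 effectors rose, 1 was higher and 4 were lower between the siRNAs. Depth limited LINC00885 and the interferon ligands, with few counts each.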
